A study of Homo sapiens with 4 samples.

Results

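The DNAJ proteins, also called HSP40 proteins or J proteins, are the co-chaperones that deliver unfolded proteins to HSP70 chaperones. Each carries a J domain, which binds an HSP70 protein and stimulates its ATPase, so that the HSP70 closes on the delivered client. The other parts of a J protein decide where in the cell it works and which clients it brings, and this is why one HSP70 protein serves many J proteins. DNAJA proteins resemble the bacterial DnaJ along their whole length, DNAJB proteins lack its zinc finger, and DNAJC proteins share little more than the J domain and often have a single dedicated task. In an erythroid cell, chaperones of this kind help to fold the large amounts of protein that are made during differentiation, and several of their genes are known targets of the heat shock response and of the unfolded protein response of the endoplasmic reticulum (ER).

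The members described here are the genes whose symbol is DNAJA, DNAJB or DNAJC followed by a number. A total of 43 such genes had a named probe set among 17687 named genes, 4 of the DNAJA, 12 of the DNAJB and 27 of the DNAJC subfamily, and each had 1 probe set. The annotation used named no probe set for DNAJB3 or DNAJC5, and they are not analysed here. RNA was measured in K562, a cell line of human chronic myeloid leukemia that makes embryonic and fetal globins and differentiates along the erythroid lineage when given hemin, the oxidized form of heme. Undifferentiated K562 cells (0 h) were compared with K562 cells after 24 h in 50 µM hemin (24 h), with 2 Human Clariom S arrays per time point that are labelled as biological replicates. By the methods, hemin was given to K562 cells in the presence of DMSO, whereas the labels of these arrays name hemin alone. There was no array of cells grown for 24 h without hemin, so the effects of hemin and of time in culture cannot be told apart, and nothing in the sources used here says how the replicate cultures were separated, so the p-values rest on the spread of these arrays alone, which may be technical.

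Values are log2 intensities of probe sets after RMA, and a difference of 1 is a 2-fold difference. The arrays had similar medians (6.10 to 6.24) and correlated at r = 0.982 within 0 h, 0.988 within 24 h and 0.972 to 0.979 between the time points, where the points were probe sets and not independent samples. All 11 measured markers of erythroid leukemia cells, with means of 8.0 to 17.06, lay above the dim line in every array. This line, at a log2 value of 5.70, was set so that 95 percent of 348 olfactory receptor genes had a mean under it. Among these erythroid markers, NFE2 was called lower at 24 h by limma (change -1.68, adjusted p = 0.0434), and no other was called. LMO2 (-2.08), GATA1 (-1.04), EPOR (-0.63), KLF1 (-0.45) and TFRC (-0.10) also had changes below 0. TAL1 (0.82), HBE1 (0.91), HBZ (0.58), HBA1 (0.21) and HBA2 (0.21) had changes above 0. Among markers of other cells, 4 of 7 measured for lymphocytes, 4 of 7 for monocytes and granulocytes, and 3 of 7 for epithelium, fibroblasts and endothelium lay below the line in all 4 arrays, among them MS4A1, CD2, CSF3R, S100A8, KRT5 and COL1A1. The markers above the line in all 4 arrays were CD79A of the lymphocyte list (7.18 at 0 h and 6.79 at 24 h), LYZ of the monocyte and granulocyte list (11.94 and 11.74), and EPCAM (13.53 and 12.33) and COL1A2 (8.74 and 8.94) of the third list, with 0 called between the time points by limma. Their part in the results was not tested. The time points were compared with limma over all 20893 transcript probe sets. A call means a Benjamini-Hochberg adjusted p under 0.05.

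Hemin-treated K562 cells had more RNA of 2 DNAJ genes, DNAJB4 of the cytosol and DNAJB9 of the ER. Of the 43 members, 25 differed by less than 0.5 on the log2 scale (58.1%, against 69.3% of all probe sets). DNAJB4 rose 18.9-fold and DNAJB9 8.05-fold. Thus, 2 of 43 members were called higher by limma, or 4.65%, against 0.823% of all probe sets, and 0 members were called lower, against 0.12% of all probe sets. At an unadjusted p under 0.05, limma gave 7 higher members (16.3%, against 6.28% of all probe sets) and 3 lower ones (6.98%, against 6.62%). The median change of the members was 0.08, compared with -0.06 over all probe sets and -0.03 over those with a mean above the dim line, and it was 0.05 without the 2 called genes. In 13 members both 24 h arrays lay above both 0 h arrays (30.2%, against 18.8% of all probe sets), and in 10 both lay below (23.3%, against 24.9%). Among probe sets with a mean above the dim line, limma called 1.42% higher. At an unadjusted p under 0.05, 9.36% of them were higher and 8.79% lower. Both 24 h arrays lay above both 0 h arrays in 23.4% of them and below in 27.3%, and 63.5% differed by less than 0.5. Members were chosen with earlier results of these data known, so no share was tested. In a culture measured as a whole, a higher level in every cell and a higher level in some of the cells cannot be told apart.

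**Figure D1:**
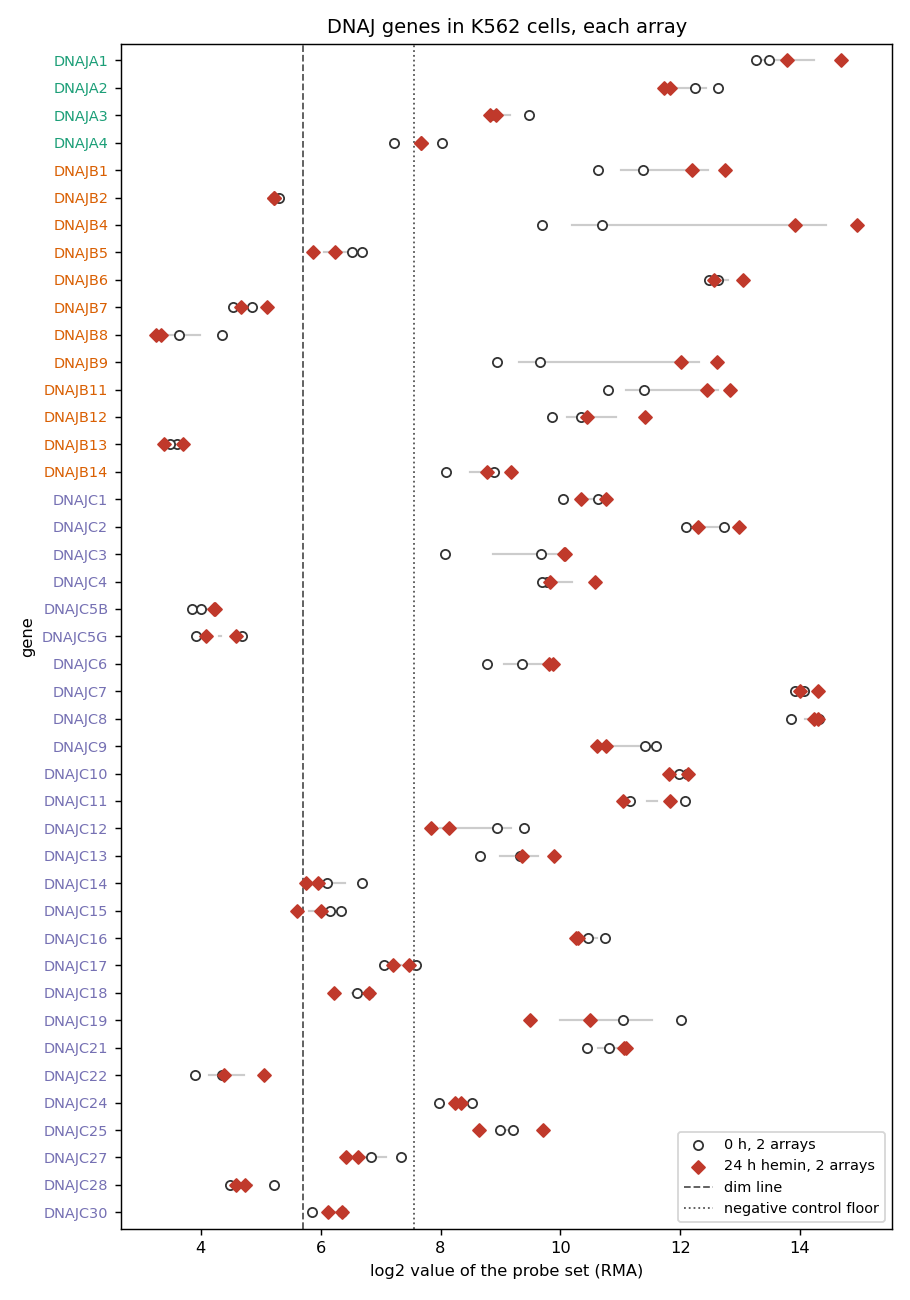
Log2 value (RMA) of each of the 43 DNAJ genes on each of the 4 arrays, with 0 h as open circles, 24 h of hemin as red diamonds and a grey line between the means of the time points; gene names are coloured by subfamily. The vertical lines mark the dim line at 5.70 and the higher negative control floor at 7.56. DNAJB4 and DNAJB9 have the widest gaps between the time points, and 8 genes lie left of the dim line on all arrays.

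Most of the family was detected in K562 cells. Of the 43 members, 34 lay above the dim line in all 4 arrays, and 27 also lay above a stricter floor of 7.56, the 95th percentile among 612 negative control probe sets. A further 8 members were below the dim line in all 4 arrays and have no measured level here. These were DNAJB2 (HSJ1, which sorts clients to the proteasome), DNAJB7 and DNAJB8, which are testis-enriched relatives of DNAJB6, DNAJB13, a component of sperm flagella and cilia, DNAJC5B and DNAJC5G, which are relatives of the cysteine string protein, DNAJC22 and DNAJC28. DNAJC15 was above the line in 3 of the 4 arrays. Every member with an adjusted p or a per-array value printed below was above both lines in all arrays, except where stated.

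Among the members, the largest difference between the time points was that of DNAJB4 (probe set TC0100018238.hg.1), a cytosolic HSP40 closely related to the canonical heat-inducible DNAJB1. Its log2 values were 9.69 and 10.70 in the 0 h arrays and 14.96 and 13.92 in the 24 h arrays. The lower 24 h array was thus 3.22 above the higher 0 h array, while the arrays of one time point differed by 1.01 and 1.03. The rise of DNAJB4 on the log2 scale was 4.24 with a standard error of 0.45 (limma, adjusted p = 0.00298). DNAJB1 itself was measured at 10.63 and 11.39 at 0 h and at 12.74 and 12.19 at 24 h. The time points of DNAJB1 did not overlap, but its change of 1.46, with a standard error of 0.37 (limma, adjusted p = 0.125), did not pass the threshold. DNAJB5, the third gene of this closely related trio, was measured at 6.69 and 6.52 at 0 h and at 5.87 and 6.25 at 24 h, all above the dim line and below the stricter floor, and both 24 h arrays were the lower ones (change -0.55, standard error 0.32, adjusted p = 0.521 from limma). Whether probes of these related genes share sequence was not tested.

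The remaining cytosolic HSP40 genes with broad client ranges showed smaller differences. DNAJA1, a general partner of cytosolic HSP70, was measured at 13.26 and 13.49 at 0 h and at 14.68 and 13.78 at 24 h. Both 24 h arrays were higher, by a mean of 0.85 (limma, standard error 0.37, adjusted p = 0.375), and the 24 h arrays differed from each other by 0.91. DNAJA2, which assists cytosolic HSP70 in refolding, lay on the other side of 0, with 12.63 and 12.24 at 0 h against 11.73 and 11.82 at 24 h (change -0.66, adjusted p = 0.429 from limma). The time points did not overlap for either of these genes. DNAJA4, which is known as a stress-inducible relative, had a change of 0.05 with overlapping arrays, of which 1 lay below the stricter floor. DNAJB6, which keeps polyglutamine proteins from aggregating, was measured at 12.64 and 12.48 at 0 h and at 13.04 and 12.56 at 24 h (change 0.25, standard error 0.33), and its time points overlapped.

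The promoters of these genes are shown because heat-inducible HSP40 genes are classical targets of heat shock factor, whose binding element is built from inverted repeats of the letters GAA. The promoter windows were those of RefSeq (assembly GRCh38.p14), from 250 bases before to 50 bases after each start that the table lists. Of the 43 members 39 had an entry, with 51 windows in all, and 9 of them had more than 1 start. DNAJC1, DNAJC5B, DNAJC22 and DNAJC24 had none. A gene was counted once if any of its windows held the letters on either strand. The 3-unit element GAANNTTCNNGAA was found in 85 of 15843 protein-coding genes (0.537%) and in 2 of the 39 members, DNAJA1 and DNAJB6. In DNAJA1 it spans positions 4 to 16 after the start, and in DNAJB6 positions -131 to -119. The stretches around the element read as follows, on the gene's strand, with the letters of the 3 units in capitals.
DNAJA1, chr9:33025268-33025296, plus strand: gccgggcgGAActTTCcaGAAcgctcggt
DNAJB6, chr7:157336865-157336893, plus strand: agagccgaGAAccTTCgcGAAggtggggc
Neither of these 2 genes passed the threshold in the arrays. The 2-unit parts GAANNTTC and TTCNNGAA, which both overlap the 3-unit element, occur in 7.38% and 8.84% of all genes. GAANNTTC was found in 6 of the 39 members (DNAJA1, DNAJA4, DNAJB1, DNAJB6, DNAJB7 and DNAJC6) and TTCNNGAA in 4 (DNAJA1, DNAJB4, DNAJB6 and DNAJC15). DNAJB4 has 2 listed starts. The window of the first held none of the letters searched, and that of the second held TTCNNGAA at positions -98 to -91. DNAJB1 has 3 listed starts. The window of the second held GAANNTTC at positions -77 to -70 and again at -47 to -40, and that of the third held it at positions 2 to 9. The stretches of DNAJB4 and DNAJB1 before their second starts are shown with the letters of the units in capitals.
DNAJB4, chr1:78004833-78004856, plus strand: atttgctgTTCtaGAAagtacaga
DNAJB1, chr19:14518429-14518482, minus strand: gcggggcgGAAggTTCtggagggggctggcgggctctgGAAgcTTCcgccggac
Which of the starts were used in these cells was not measured. A match of letters is a description of the window and not a measured binding site, and the absence of a match says only that these letters are not in it.

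J proteins of the ER lumen work with BiP, the HSP70 protein of the ER encoded by HSPA5. Of the 10 ER members, 4 encode luminal proteins and 6 encode membrane proteins with other topologies or tasks. DNAJB9 (ERdj4; probe set TC0700008786.hg.1), a luminal partner of BiP known as a target of the unfolded protein response, was measured at 8.95 and 9.66 at 0 h and at 12.61 and 12.01 at 24 h. Its lower 24 h array was 2.36 above its higher 0 h array, while the arrays of one time point differed by 0.71 and 0.59. The rise of DNAJB9 was 3.01 with a standard error of 0.37 (limma, adjusted p = 0.00604). DNAJB11 (ERdj3), which binds unfolded clients for BiP, had 10.79 and 11.39 at 0 h and 12.82 and 12.44 at 24 h. Both 24 h arrays were higher, and the change of 1.54 had a standard error of 0.35 and an adjusted p of 0.0812 in limma. DNAJC3 (p58IPK), a partner of BiP that is also known to inhibit eIF2alpha kinases, had 9.67 and 8.08 at 0 h and 10.06 and 10.07 at 24 h. The 24 h arrays of DNAJC3 agreed within 0.01, but its 0 h arrays were 1.59 apart, and its change of 1.19 had a standard error of 0.48 (limma, adjusted p = 0.326). DNAJC10 (ERdj5), a disulfide reductase of the lumen, had overlapping time points, with 12.12 and 11.98 at 0 h and 12.12 and 11.81 at 24 h (change -0.09, standard error 0.32). Differences between members were not tested.

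The membrane members of the ER had changes on both sides of 0, from -0.55 to 0.83, with a median of 0.01, compared with a median of 1.37 for the 4 luminal ones. Of the 6, 0 were called and 0 had an unadjusted p under 0.05 in limma. DNAJB12, whose J domain faces the cytosol and which works in ER-associated degradation, had 10.35 and 9.86 at 0 h and 11.42 and 10.44 at 24 h, so that the time points were separated by 0.09 only (change 0.83, standard error 0.40, adjusted p = 0.423 from limma). Its relatives DNAJB14 and DNAJC18 had changes of 0.48 and -0.19 with overlapping arrays. DNAJC1 (ERdj1), which contacts both BiP and the ribosome, had a change of 0.21 and overlapping arrays. DNAJC16 (ERdj8, change -0.33) and DNAJC14 (change -0.55) had both 24 h arrays below both 0 h arrays, by 0.18 and 0.15 at the closest, and DNAJC14 lay below the stricter floor in all arrays.

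Promoter letters of the luminal genes are shown because the ER stress response element joins CCAAT to CCACG over 9 bases (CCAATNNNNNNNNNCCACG), and DNAJB9 and DNAJB11 are known targets of the response. With this exact spacing the element was found in 21 of 15843 genes (0.133%) and in 0 of the 39 members. The shorter form ATTGGNCCACG was found in 0.0947% of all genes and in 0 members. TGACGTG, the core bound by XBP1 and ATF6, was found in 2.75% of all genes and in 2 members, DNAJC10 and DNAJC25, of which neither was called. TGATGNAA, the core of composite sites for ATF4 and CHOP, was found in 3.60% of all genes and in 1 member, DNAJA4. CCAAT, the box of the factor NF-Y, was found in 42.1% of all genes and 17 of the 39 members, and CCACG, which was added to the search after the sequences had been seen, in 50.2% and 24 of the 39. The window of DNAJC10, the luminal gene whose stretch is not shown, held both boxes too, and its time points overlapped. CCAAT lay at positions -214 to -210, and CCACG at -125 to -121, -37 to -33 and 11 to 15. CCAAT (or ATTGG, the same box on the other strand) and CCACG (or CGTGG) are in capitals in these stretches.
DNAJB11, chr3:186570547-186570689, plus strand: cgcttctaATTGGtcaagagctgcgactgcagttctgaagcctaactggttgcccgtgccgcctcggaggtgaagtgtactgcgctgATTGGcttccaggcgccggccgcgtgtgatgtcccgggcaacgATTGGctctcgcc
DNAJC3, chr13:95676951-95677076, plus strand: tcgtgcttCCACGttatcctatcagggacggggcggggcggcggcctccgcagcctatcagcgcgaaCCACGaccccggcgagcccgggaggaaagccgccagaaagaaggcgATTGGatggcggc
DNAJB9, chr7:108569769-108569873, plus strand: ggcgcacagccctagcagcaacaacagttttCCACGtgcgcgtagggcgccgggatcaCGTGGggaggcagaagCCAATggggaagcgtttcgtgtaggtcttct
The DNAJB9 stretch is the whole of the 105 bases between the start of DNAJB9 and that of THAP5, a zinc finger gene on the opposite strand. This pair is thus arranged head to head, and THAP5 was measured at 9.15 and 11.01 at 0 h and at 12.18 and 11.30 at 24 h. Both 24 h arrays of THAP5 were higher (change 1.66, standard error 0.56, adjusted p = 0.243 from limma). The gene beyond THAP5, PNPLA8, which encodes a phospholipase, rose by 2.31 (standard error 0.31, limma, adjusted p = 0.00937), from 9.58 and 9.84 at 0 h to 12.12 and 11.92 at 24 h. PNPLA8 was the 1 gene called among 35 measured neighbours, while 0.823% of all probe sets were called higher and 0.12% lower. Neighbours were the nearest 2 protein-coding genes on either side of the 10 members at an unadjusted p under 0.05. The neighbours of DNAJB4 were not called, and FUBP1, the one of them above the dim line in all arrays, had a change of 0.32.

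**Figure D2:**
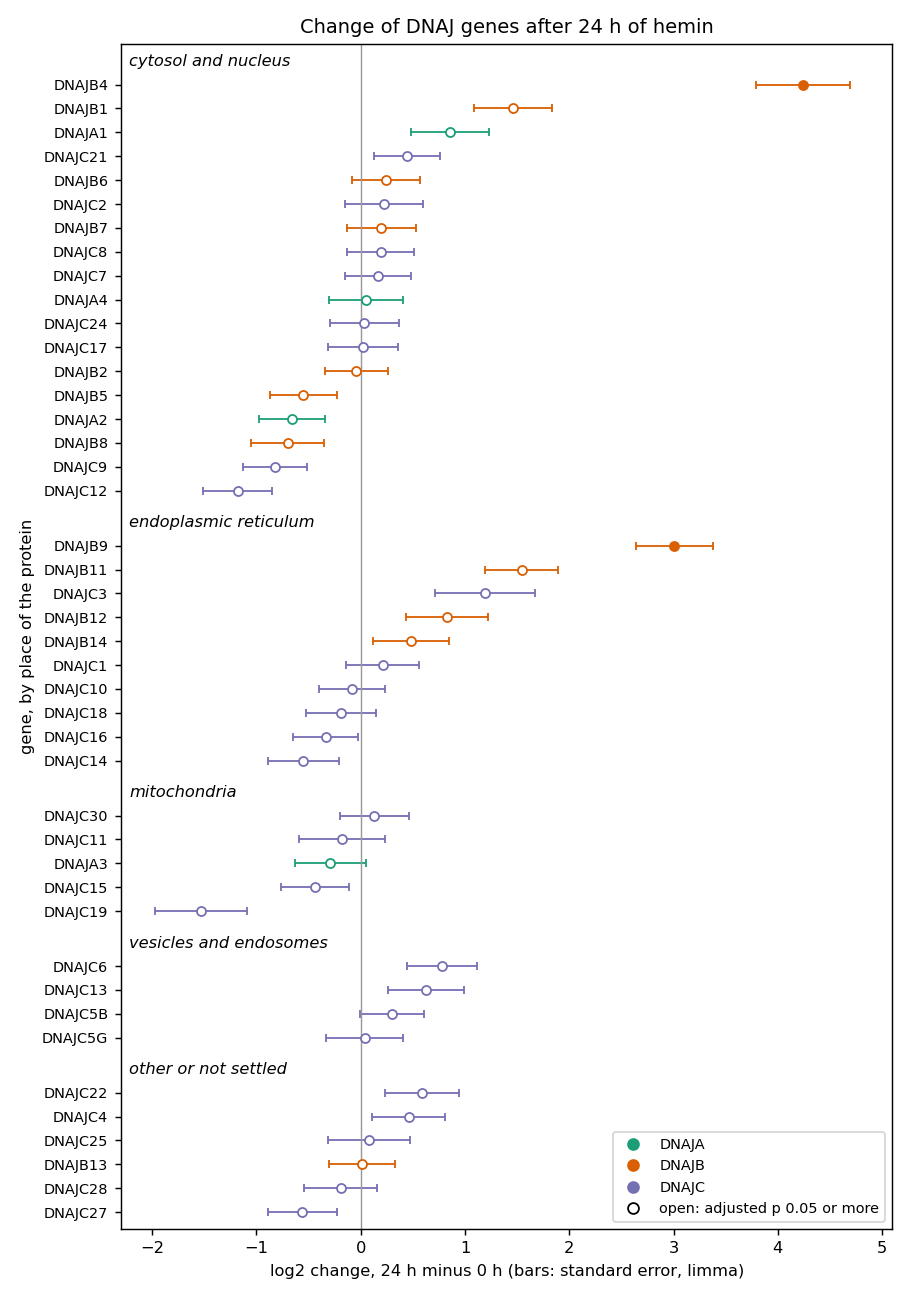
Log2 change (24 h minus 0 h) of each of the 43 DNAJ genes with its standard error from limma, grouped by the place of the protein and coloured by subfamily; filled points have an adjusted p under 0.05. DNAJB4 (4.24) and DNAJB9 (3.01) are the 2 filled points, and DNAJC19 (-1.53) has the lowest value.

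Mitochondrial members had changes of -1.53 to 0.13, with a median of -0.29, and 4 of the 5 changes were below 0 (against 55.1% of all probe sets). DNAJC19 (TIM14), a subunit of the motor that pulls proteins through the inner membrane, was measured at 11.04 and 12.01 at 0 h and at 9.49 and 10.49 at 24 h. Both 24 h arrays were lower, by at least 0.55, while the arrays of each time point were 0.97 and 1.00 apart. The change of -1.53, with a standard error of 0.44 (limma, adjusted p = 0.167), did not pass the threshold. DNAJC15 (MCJ), its relative in the import motor, was close to the dim line, with 6.15 and 6.34 at 0 h and 6.01 and 5.60 at 24 h, and its last array was below the line. DNAJA3, the partner of mitochondrial HSP70 in the matrix, had 8.85 and 9.48 at 0 h and 8.92 and 8.83 at 24 h (change -0.29, standard error 0.34). DNAJC11, which is associated with the contact sites of the inner membrane, and DNAJC30, which is associated with ATP synthase, had changes of -0.18 and 0.13. In these last 3 genes the time points overlapped.

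Among DNAJC members of the cytosol and nucleus, those with the brightest probe sets had changes of under 0.5. DNAJC7 (TPR2), which links HSP70 and HSP90, had 13.92 and 14.06 at 0 h and 14.31 and 14.00 at 24 h. DNAJC8, a nuclear protein of the spliceosome, had 13.85 and 14.31 at 0 h and 14.30 and 14.24 at 24 h. DNAJC2, which sits at the ribosome with the HSP70 protein HSPA14, had 12.10 and 12.74 at 0 h and 12.98 and 12.30 at 24 h. In all 3 the time points overlapped, and the changes were 0.16, 0.19 and 0.22. DNAJC21, a factor of large ribosomal subunit biogenesis, had both 24 h arrays above both 0 h arrays (change 0.45, standard error 0.32), while DNAJC17, linked to splicing, and DNAJC24 (DPH4), an enzyme of diphthamide synthesis, had changes of 0.02 and 0.04.

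DNAJC9 and DNAJC12 were lower in both 24 h arrays. DNAJC9, a nuclear chaperone of histones, had 11.60 and 11.42 at 0 h and 10.76 and 10.60 at 24 h. Its time points were 0.65 apart at the closest and its arrays within a time point at most 0.18 apart, yet its change of -0.82 had a standard error of 0.31 and an adjusted p of 0.293 in limma. DNAJC12, a partner of the aromatic amino acid hydroxylases, had 8.95 and 9.39 at 0 h and 7.85 and 8.13 at 24 h (change -1.18, standard error 0.33, adjusted p = 0.151 from limma). Both genes were among the 3 lower members at an unadjusted p under 0.05, together with DNAJC19.

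The 4 members of vesicles and endosomes all had changes above 0 (against 44.9% of all probe sets), from 0.04 to 0.78, and 2 of them were below the dim line throughout. DNAJC6 (auxilin), which strips clathrin from coated vesicles and is known mainly from neurons, had 9.35 and 8.77 at 0 h and 9.88 and 9.80 at 24 h. Its 24 h arrays were both higher and within 0.08 of each other (change 0.78, standard error 0.33, adjusted p = 0.362 from limma). DNAJC13 (RME-8), which sorts endosomal cargo, had a change of 0.62, with the time points separated by 0.02. The 6 members of other or unsettled place had changes of -0.56 (DNAJC27, a small GTPase with a J domain) to 0.59 (DNAJC22, below the dim line). DNAJC4 and DNAJC25, both membrane proteins, had changes of 0.46 and 0.08. By subfamily, the median change was -0.12 for DNAJA, 0.36 for DNAJB and 0.04 for DNAJC, and both called genes were DNAJB genes.

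**Figure D3:**
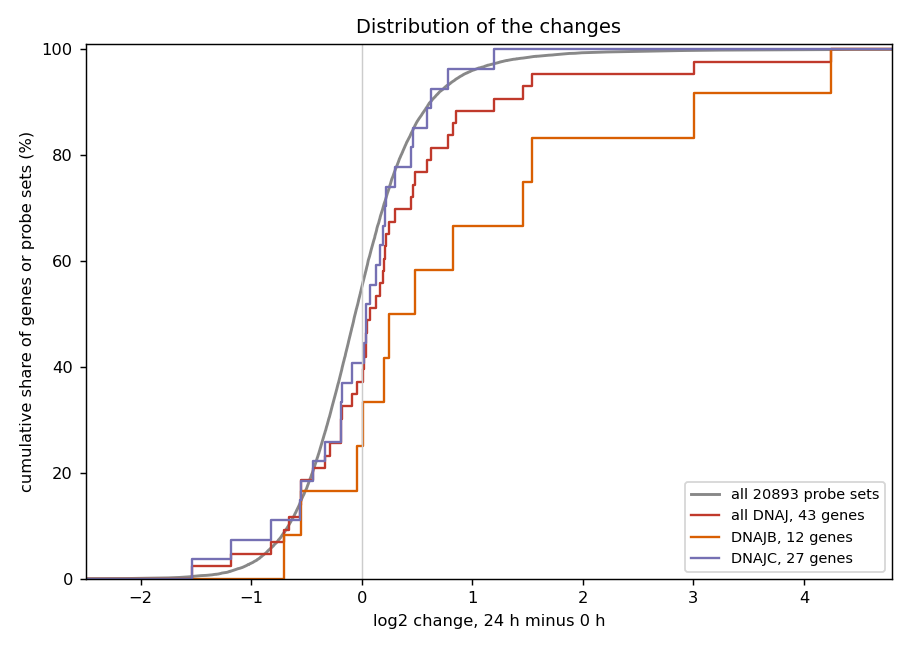
Cumulative share (%) of genes or probe sets against the log2 change (24 h minus 0 h) for all 20893 probe sets (grey), all 43 DNAJ genes (red), the 12 DNAJB genes (orange) and the 27 DNAJC genes (purple). The DNAJB line runs to the right of the others over the upper part of the range, up to DNAJB9 at 3.01 and DNAJB4 at 4.24, while the DNAJC line ends at 1.19 (DNAJC3).

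J proteins act mainly through HSP70 proteins, and an HSP70 protein releases its client with the help of a nucleotide exchange factor. Of 56 listed partner genes, 49 had a named probe set. Limma called 8 of these, all higher (16.3%, against 0.823% of all probe sets and 1.42% of those with a mean above the dim line). The partner lists were chosen with earlier results of these data known, so the shares here and below describe the lists and test nothing. For HSPA8, the constitutive cytosolic HSP70 gene, and HSPA1B no probe set was named. HSPA1A, the heat-inducible cytosolic HSP70 gene, was measured at 11.92 and 11.25 at 0 h and at 15.50 and 13.61 at 24 h. HSPA1A rose by 2.97 (standard error 0.55, adjusted p = 0.045 from limma), although its 24 h arrays were 1.89 apart. It is near-identical to HSPA1B, and their transcripts may not be told apart by the probes. BAG3, an exchange factor of cytosolic HSP70, rose by 2.83 (limma, adjusted p = 0.00787), from 9.29 and 9.79 to 12.77 and 11.98. Of the 14 measured exchange factors, 2 were called, 9 had changes above 0 and 5 below, and the median was 0.25. BAG4 (-0.56) and BAG5 (-0.40) were among those below 0. Of the 10 measured HSP70 genes, 2 were called, and 1, HSPA14 (-0.64), had a change below 0 (against 55.1% of all probe sets). However, 6 of the 10 lay above the dim line in all 4 arrays, and HSPA12A and HSPA12B lay below it in all 4. Like DNAJB4 and HSPA1A, BAG3 had a higher value in replicate 1 than in replicate 2 at 24 h. Of the other called members and partners, DNAJB9, HERPUD1, SEL1L and SDF2L1 had the same order, and HSPA5, HYOU1 and MANF the reverse. Among the 5 measured heat shock factors and cytosolic partners 0 were called and 1 had an unadjusted p under 0.05 in limma, and their changes ran from -0.78 (STUB1, a ubiquitin ligase) to 0.78 (HSPB1, a small heat shock protein).

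Of the genes that work with the luminal J proteins, HSPA5 (BiP) was at 13.61 and 14.50 at 0 h and at 16.14 and 16.36 at 24 h. HSPA5 rose by 2.19 (standard error 0.37, adjusted p = 0.0288 from limma). HYOU1, an exchange factor of BiP, rose by 1.72 (limma, adjusted p = 0.0438), from 13.38 and 13.03 to 14.88 and 14.97, whereas SIL1, another exchange factor of BiP, had a change of -0.31. Of 11 measured ER folding and degradation partners, 4 were called higher (36.4%, against 0.823% of all probe sets). All 11 had a change above 0 (against 44.9% of all probe sets), with a median of 1.76. This list too was chosen with earlier results of these data known, so its shares test nothing. HERPUD1, a membrane component of ER-associated degradation, rose by 5.01 (limma, adjusted p = 0.00044), from 8.26 and 8.79 to 13.85 and 13.22. MANF, a luminal protein that is known to bind BiP, rose by 2.47, from 6.66 and 6.80, which are below the stricter floor, to 9.15 and 9.25. SEL1L, the adaptor of the ER ubiquitin ligase SYVN1, rose by 2.39, from 10.51 and 10.79 to 13.09 and 12.99. SDF2L1, which forms a complex with DNAJB11, rose by 1.98 (limma, adjusted p = 0.0463), from 9.94 and 10.46 to 12.56 and 11.80. In all 8 called partner genes both 24 h arrays lay above both 0 h arrays.

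**Figure D4:**
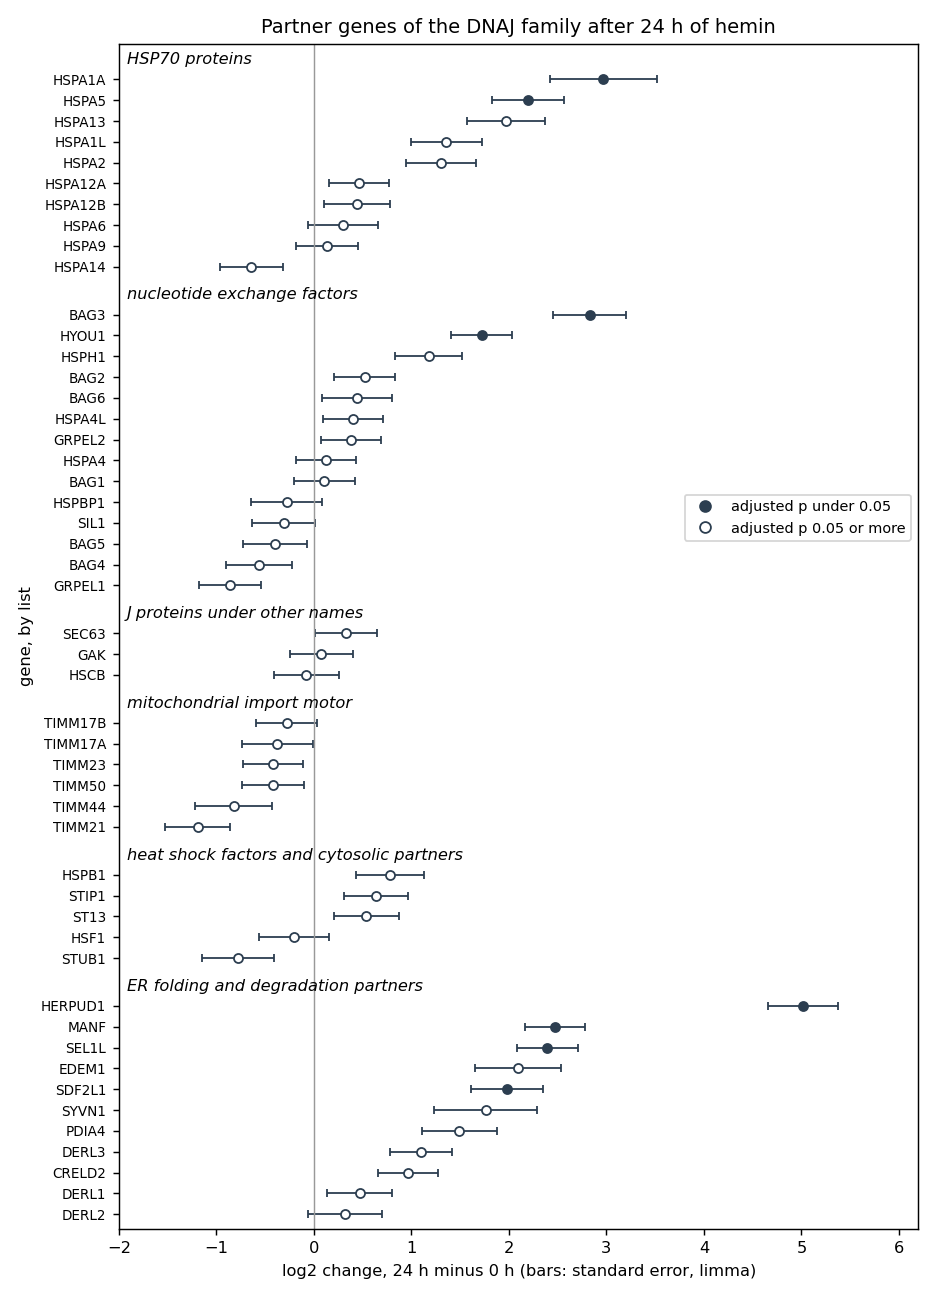
Log2 change (24 h minus 0 h) with its standard error from limma for 49 partner genes of the DNAJ family in 6 lists; filled points have an adjusted p under 0.05. The 11 ER folding and degradation partners lie above 0, up to HERPUD1 at 5.01, and the 6 genes of the mitochondrial import motor lie below 0.

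Among partners of the mitochondrial members, HSPA9, the mitochondrial HSP70 gene, had 15.69 and 15.26 at 0 h and 15.65 and 15.57 at 24 h, with overlapping time points and a change of 0.13 (standard error 0.32). All 6 measured genes of the import motor and its channel, with which DNAJC19 works, had changes below 0, from -1.19 (TIMM21) to -0.28 (TIMM17B), with a median of -0.42, while 55.1% of all probe sets had a change below 0. In 5 of the 6 both 24 h arrays lay below both 0 h arrays (against 24.9% of all probe sets), but 0 were called, and 1 of them had an unadjusted p under 0.05 in limma. GRPEL1, an exchange factor of mitochondrial HSP70, had a change of -0.86 (limma, adjusted p = 0.28). GRPEL2, the other listed exchange factor of mitochondrial HSP70, had a change of 0.38, with both 24 h arrays higher (limma, adjusted p = 0.657). J proteins that carry other names, SEC63 of the ER membrane, GAK, a relative of auxilin, and HSCB of iron-sulfur cluster assembly, had changes of 0.33, 0.08 and -0.08, and 0 were called or had an unadjusted p under 0.05 in limma.

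The calls of DNAJB4 and DNAJB9 depended on 1 array. Without replicate 1 at 0 h, their changes were 3.74 and 2.66 and neither was called. Both were called when any one of the other 3 arrays was left out. Over all probe sets, limma called fewer without either 0 h array and more without replicate 2 at 24 h, so lost or gained calls were not particular to these genes. Without replicate 2 at 24 h, DNAJB1 and DNAJB11 were also called higher and DNAJC19 was called lower. Of the 8 partner genes, HERPUD1 was the 1 still called when either of the 0 h arrays was left out.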

How the data were processed

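RNA of K562 cells was hybridized to 4 Clariom S arrays, 2 for each time point, which were grouped by the labels. The deposited log2 values, 1 for each probe set and array, were made by the authors in Affymetrix Expression Console by RMA (background correction, log2, quantile normalization). By the methods, the authors then tested them in Partek. Tool versions and the array's build were not given in the sources used here. No further scaling was applied. After 2903 control rows and 555 unmapped rows were left out, 20893 transcript probe sets were tested with lmFit and eBayes of limma 3.58.1 under R 4.3.3 (two-sided, no covariate, prior of 7.47 degrees of freedom), with Benjamini-Hochberg adjustment over all of them. Arrays have no read depth, and their number limits the precision. Gene symbols came from the platform annotation of GEO (17705 probe sets named, 3188 unnamed here). The limma step was tested on simulated data. Promoters came from RefSeq (GRCh38.p14), and their coordinates are not those of the array.

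Members and gene lists were chosen with earlier results of these data known. Values per array were given for members that were called, had an unadjusted p under 0.05 or were the 3 brightest of a subfamily at 0 h, and for called partners with HSPA1A, HSPA5 and HSPA9. Other members are given by changes, and DNAJB5, DNAJB12, DNAJC10, DNAJC15, DNAJC25, the read-through symbol DNAJC25-GNG10 and the neighbours of DNAJB9 were given per array after their values were seen. Places and roles of the proteins are textbook knowledge. Alternatives were another quantile normalization, median centring, 2 filters on dim probe sets, array weights, limma's trend and robust options together, the methods' ANOVA, a block for the replicate number, a looser threshold of 0.10 and leaving out each array in turn.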

Additional observations from a re-analysis of the deposited data

How the results depend on the processing

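The count of 2 DNAJ genes called higher was the same with another quantile normalization, median centring, the filter at the dim line and array weights. It was 4 with the filter at the negative control floor and with a trend and robust variance model, which both added DNAJB1 and DNAJB11. These settings also called more of all probe sets than the 197 of the main fit. The filter called 495 of 8105, with 28 members tested, and the variance model 546 of 20893. At an adjusted p under 0.10, 3 were called, among 418 of all probe sets. The count of 0 lower was the same under all of these. The methods' ANOVA called 0 probe sets after Benjamini-Hochberg adjustment, and so 0 members higher, 0 lower and 0 partners. At its unadjusted threshold, 1930 of the 20893 probe sets passed. Among them were, of the 43 members, 3 higher (DNAJB4, DNAJB9 and DNAJB11) and 2 lower (DNAJC9 and DNAJC12), and 14 partners. The 8 called partners became 13 with the trend and robust model, and HSPA1A lost its call with array weights (adjusted p = 0.0555 from limma). With each array left out in turn, the lone array of a time point was assumed to vary like the others. The numbers of called members and partners then broadly followed that of all probe sets called. The partner count was 1 (HERPUD1) when either 0 h array was left out. The median change of the members ran from 0.01 to 0.24, and that of HSPA9 from -0.081 to 0.35. With the replicate number as a block, limma called 429 probe sets in place of 197, 3 members higher (DNAJB11 was added), 1 lower (DNAJC19, adjusted p = 0.0356) and 11 partners. Deviations of arrays with the same number correlated at -0.003 over probe sets, so no shared deviation was seen. With 2 arrays per time point this cannot tell whether the cultures were paired. As the floor for bounding a member's fold, the negative control level gave no other value, since DNAJB4 and DNAJB9, the 2 members with a fold, were above it in all arrays. Of the other values of single genes, 188 kept their direction and side of the threshold, 9 passed it newly, 30 no longer passed and 1 (HSPA9 without replicate 2 at 0 h) changed direction.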

Other observations

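DNAJC25-GNG10, a symbol for a read-through transcript of DNAJC25 and GNG10, was not counted as a member. Its probe set had log2 values of 8.98 and 9.53 at 0 h and of 9.28 and 8.49 at 24 h, with overlapping time points and a change of -0.37 (adjusted p = 0.739 from limma). The DNAJC25 probe set had 9.21 and 9.0 at 0 h and 9.72 and 8.65 at 24 h, and these overlapped too. In the promoter windows, TGACNNNGC, the core of the antioxidant response element, was found in 5 of 39 members (DNAJA2, DNAJB6, DNAJC10, DNAJC11 and DNAJC5G), against 17.9% of all genes, and none of these 5 genes was called by limma.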
